A study of Mus musculus with 11 samples.

Results

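Macrophages and monocytes were followed in whole skin through 10 genes that mark these cells, namely Adgre1, Csf1r, Cd68, Itgam, Mrc1, Lyve1, Cd163, Ly6c2, Ccr2 and Cx3cr1. They were taken by gene symbol from a count table of 49315 genes, and all 10 passed the filter on low counts that left 18375 genes for testing. Skin came from 11 mice on a C57BL/6J background. Depletion used Foxp3-DTR mice, in which the diphtheria toxin receptor is expressed under the Foxp3 promoter, so that diphtheria toxin (DT) removes regulatory T cells (Tregs). Each library was 1 mouse. Control mice (n = 2) received PBS. The paper describes PBS controls of its pigmentation experiments as Foxp3-DTR mice and does not state the genotype of these 2 mice. ΔETreg mice (n = 3) received 2 doses of DT on P6 and P8 and were harvested on P9. ΔLTreg mice (n = 3) received 2 doses on P10 and P12 and were harvested on P13. ΔTreg mice (n = 3) received 4 doses from P6 to P12 and were also harvested on P13. The paper describes age-matched controls for its comparisons on P9 and P13, but the labels do not give the day of either control mouse. Age and depletion therefore cannot be told apart in comparisons with control.

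Tissue macrophages depend on the receptor encoded by Csf1r, and in skin they share F4/80 (Adgre1), the lysosomal glycoprotein CD68 (Cd68) and the integrin CD11b (Itgam). Long-lived dermal macrophages are known for scavenger and endocytic receptors, among them the mannose receptor CD206 (Mrc1), the haemoglobin scavenger receptor CD163 (Cd163) and the hyaluronan receptor LYVE1 (Lyve1), and these 3 genes are called resident markers here. Classical monocytes carry high surface Ly6C (Ly6c2) and leave the bone marrow through the chemokine receptor CCR2 (Ccr2), and these 2 genes are called recruited markers. The fractalkine receptor CX3CR1 (Cx3cr1) is found on patrolling monocytes and on some tissue macrophages. None of the 10 genes belongs to 1 cell type alone. Lymphatic endothelium also carries LYVE1, neutrophils and natural killer cells carry CD11b, and some lymphocytes carry CCR2.

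Ly6c2 needs care because a close copy, Ly6c1, lies next to it. Ly6c1 is best known from blood endothelium. On chromosome 15 of GRCm38, Ly6c2 spans 75108158 to 75111970 and Ly6c1 spans 75044018 to 75048830, both on the minus strand. Their coding sequences of 393 bases differed at 9 positions and were 97.7% identical, and the longest identical stretch was 188 bases, longer than a 150-base read. The first 150 coding bases of both genes are shown because they hold 6 of the 9 differences, in capitals, by which a read could be told apart. They lie in exons, at chr15:75047390-75048511 for Ly6c1 and chr15:75110548-75111667 for Ly6c2, introns included in these spans.
Ly6c1: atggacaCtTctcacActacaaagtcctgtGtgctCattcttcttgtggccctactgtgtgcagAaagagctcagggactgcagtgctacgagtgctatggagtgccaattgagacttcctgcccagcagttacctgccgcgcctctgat
Ly6c2: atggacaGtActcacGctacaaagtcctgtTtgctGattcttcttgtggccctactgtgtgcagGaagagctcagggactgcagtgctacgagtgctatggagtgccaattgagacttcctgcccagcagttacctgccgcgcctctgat
Reads lying wholly within identical stretches may have been assigned to neither gene by unique counting, and the effect of this on the level of Ly6c2 was not tested.

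Promoters of 7 members were examined in RefSeq (GRCm38.p6), from 250 bases before to 50 after the gene start. Those of Adgre1, Lyve1 and Csf1r were not examined, so the count of members with a match leaves these genes out. PU.1 is the myeloid factor on which macrophages and monocytes depend. Its core, GAGGAAG on either strand, was present in 3 of the 7 (Mrc1, Itgam and Ly6c2) and in 13.6% of all 32851 promoter windows. The windows of Mrc1 (chr2:14229164-14229463, plus strand) and Ly6c2 (chr15:75111922-75112221, minus strand) are shown as those of a resident and a recruited marker, with the core in capitals.
Mrc1: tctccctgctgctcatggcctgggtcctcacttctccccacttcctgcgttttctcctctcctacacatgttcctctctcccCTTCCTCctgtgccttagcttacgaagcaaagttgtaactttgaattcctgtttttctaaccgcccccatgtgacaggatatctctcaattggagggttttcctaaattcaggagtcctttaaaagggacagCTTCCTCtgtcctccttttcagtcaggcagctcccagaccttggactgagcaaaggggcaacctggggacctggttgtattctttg
Ly6c2: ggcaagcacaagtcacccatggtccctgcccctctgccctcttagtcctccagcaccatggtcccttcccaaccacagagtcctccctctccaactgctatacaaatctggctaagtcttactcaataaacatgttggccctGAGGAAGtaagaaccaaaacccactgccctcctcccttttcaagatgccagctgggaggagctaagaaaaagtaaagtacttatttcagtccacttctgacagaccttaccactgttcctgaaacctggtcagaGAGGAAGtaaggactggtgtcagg
Each window held the core in 2 places. These matches are letters in a window and not evidence of binding.

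Total counts per library ranged from 23377571 to 34159435. Levels are given as CPM, the reads of a gene relative to the library's total, after TMM scaling. Differences are log2 fold changes from edgeR's quasi-likelihood test fitted to all 11 libraries, with Benjamini-Hochberg adjustment over the 18375 genes, and a gene was called at an adjusted p under 0.05. Foxp3 itself had only 9 to 23 reads in every library and was not called in any depleted group against control. Its values in ΔETreg mice lay below both controls, and those of ΔLTreg and ΔTreg mice overlapped control, so at this depth it was a weak check of depletion. By Xist and Ddx3y, each group held both sexes. Skeletal muscle markers varied most in ΔLTreg skin, where their summed level was 1123 to 3605 CPM against 946 to 1026 CPM in control, and replicates 1 and 3 of ΔLTreg were the most muscle-rich.

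Relative to exon length, Cd68, Csf1r, Adgre1 and the resident markers were the most abundant members in control skin. The highest was Cd68, at 10.9 ± 3.29 CPM per kb (SD, n = 2), followed by Csf1r at 8.17 ± 0.777 CPM per kb. Lyve1 at 6.28 ± 0.941 and Mrc1 at 6.19 ± 0.410 CPM per kb did not differ beyond their spread, and neither did Adgre1 at 4.66 ± 0.691 and Cd163 at 4.40 ± 0.449 CPM per kb. The recruited markers and the remaining members were scarce. Ccr2 stood at 1.06 ± 0.820, Cx3cr1 at 0.598 ± 0.221, Itgam at 0.535 ± 0.140 and Ly6c2 at 0.476 ± 0.611 CPM per kb, with overlapping values. In ΔTreg skin this order changed, as Mrc1 at 25.4 ± 6.42 and Lyve1 at 22.997 ± 0.3598 CPM per kb (SD, n = 3) came up to Cd68 at 26.0 ± 3.17 CPM per kb. Cd163 at 14.4 ± 3.08, Csf1r at 13.4 ± 1.72 and Adgre1 at 12.1 ± 2.20 CPM per kb overlapped below them. The level of Itgam may be an underestimate, since 68.7% of its exon bases are shared with the read-through gene Gm49368, for which the table held 11 reads in all.

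ΔTreg skin was compared with control to ask which markers differed after DT was given from P6 to P12. Of the 10 members, 6 rose in ΔTreg skin and none fell, where 12.1% of all genes tested were called higher and 9.39% lower. Those that rose were all 3 resident markers together with Adgre1, Cd68 and Itgam. The median log2 fold change of the members was 1.54, against -0.01 over all genes tested. In 9 of the 10, every ΔTreg mouse lay above both control mice, a separation seen in 26.8% of all genes, and the exception was Ccr2.

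**Figure D1:**
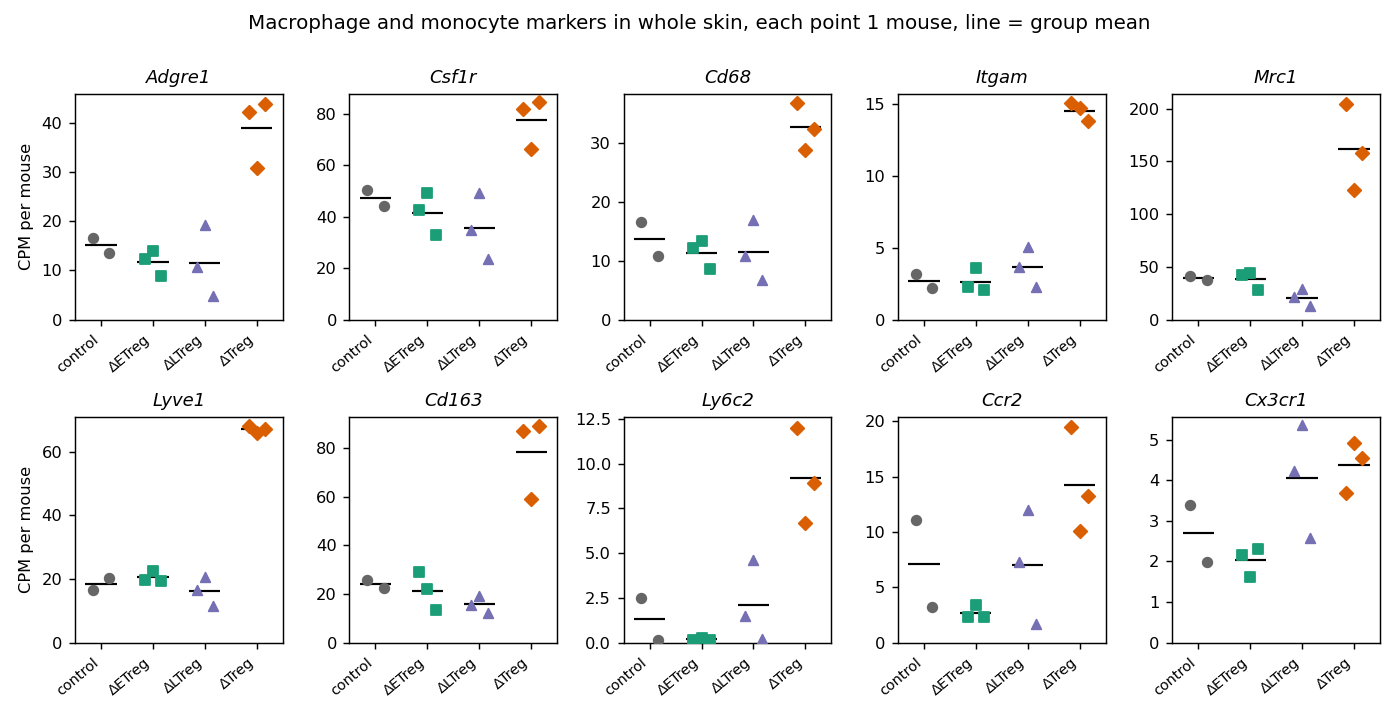
Level of each of the 10 members in CPM (linear axes from 0, each with its own scale) in control (n = 2), ΔETreg, ΔLTreg and ΔTreg skin (n = 3 each). Each point is 1 mouse and the line is the group mean. The resident markers Mrc1, Lyve1 and Cd163 stand apart in ΔTreg skin, whereas Ly6c2 and Ccr2 spread widely within control and ΔLTreg skin.

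Mrc1 (chromosome 2, 14229392 to 14332057) gave the largest resident response. It measured 41.3 and 37.6 CPM in control mice and 204, 123 and 158 CPM in ΔTreg mice. All 3 ΔTreg values were far above control, with a log2 fold change of 2.04 ± 0.32 (SE; edgeR adjusted p = 0.0011). Lyve1 (chromosome 7, 110850607 to 110863239) measured 16.4 and 20.3 CPM in control mice and 68.1, 66.0 and 67.2 CPM in ΔTreg mice. This was the tightest group of values among the members, and the log2 fold change was 1.87 ± 0.19 (edgeR adjusted p = 6.7e-05). Cd163 (chromosome 6, 124304656 to 124330527) measured 25.8 and 22.3 CPM in control mice and 87.2, 59.0 and 89.1 CPM in ΔTreg mice. Its log2 fold change was 1.70 ± 0.29 (edgeR adjusted p = 0.0020), with no overlap between the groups.

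Among the markers that macrophages share, the integrin gene Itgam (chromosome 7, 128062640 to 128118491) changed most. It measured 3.19 and 2.19 CPM in control mice and 15.1, 14.8 and 13.8 CPM in ΔTreg mice, a log2 fold change of 2.43 ± 0.31 (edgeR adjusted p = 0.00033). Adgre1 (chromosome 17, 57358691 to 57483527) measured 16.7 and 13.5 CPM in control mice and 42.3, 30.9 and 44.0 CPM in ΔTreg mice. The groups did not overlap and the log2 fold change was 1.37 ± 0.41 (edgeR adjusted p = 0.036), but the call was lost without control 1, control 2, ΔTreg 1 or ΔTreg 3. Cd68 (chromosome 11, 69664213 to 69666153) measured 16.6 and 10.8 CPM in control mice and 36.9, 28.9 and 32.4 CPM in ΔTreg mice. Its log2 fold change was 1.25 ± 0.32 (edgeR adjusted p = 0.018), and the call was lost without control 2 or ΔTreg 1. Csf1r, the receptor for CSF1 and IL-34, measured 50.4 and 44.0 CPM in control mice and 81.9, 66.2 and 84.7 CPM in ΔTreg mice. Although the groups were separate, the log2 fold change of 0.72 ± 0.25 was not called (edgeR adjusted p = 0.068). It was called by DESeq2 (adjusted p = 3.8e-07) and by edgeR fitted to these 5 libraries alone (adjusted p = 0.0038).

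The recruited markers were not called against control, and in both the 2 control mice lay far apart. Ly6c2 measured 2.49 CPM (71 reads) in control 1 and 0.120 CPM (3 reads) in control 2, and 12.01, 6.68 and 8.90 CPM in ΔTreg mice. Every ΔTreg mouse lay above both controls, and the log2 fold change was 2.76 ± 0.92 (edgeR adjusted p = 0.054). With sex as a covariate it was 2.91 ± 0.83 and was called (edgeR adjusted p = 0.032). Without control 1 the log2 fold change became 6.21 ± 1.61, with the lone control assumed to vary like the other groups. With each mouse left out in turn it ranged from 1.87 to 6.21, so its size depended on single mice. Ccr2 (chromosome 9, 124101950 to 124113557) measured 11.1 and 3.23 CPM in control mice and 19.5, 10.1 and 13.3 CPM in ΔTreg mice. The groups overlapped, and the log2 fold change of 0.98 ± 0.64 was not called (edgeR adjusted p = 0.31). Cx3cr1 (chromosome 9, 119901616 to 120069879) measured 3.40 and 1.99 CPM in control mice and 3.69, 4.93 and 4.54 CPM in ΔTreg mice, a log2 fold change of 0.70 ± 0.31 that was not called (edgeR adjusted p = 0.14).

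ΔTreg and ΔLTreg mice were both harvested on P13 after DT on P10 and P12, so that they differed in the doses of P6 and P8. In ΔTreg skin 7 of the 10 members were higher and none lower, where 10.7% of all genes were called higher and 6.11% lower. These were the resident markers and all 4 shared markers, and neither Ly6c2, Ccr2 nor Cx3cr1 was among them. The median log2 fold change of the members was 1.88 and of all genes -0.0044. In 8 of the 10 the groups did not overlap, as in 19.2% of all genes.

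**Figure D2:**
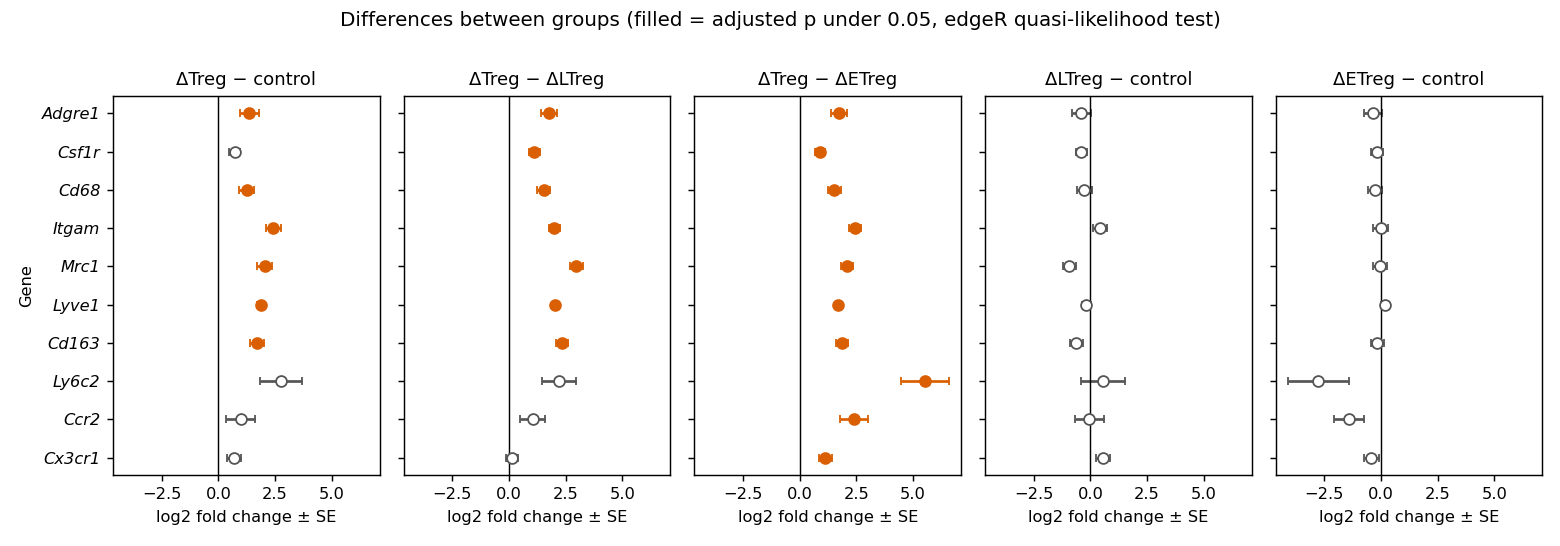
Log2 fold change of each member (points, with SE bars) in 5 comparisons, filled where the adjusted p was under 0.05. Filled points occur only in the 3 comparisons of ΔTreg skin, with 6, 7 and 10 of 10 members.

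ΔLTreg skin had the lowest Mrc1 of the 4 groups. Its level was 21.0, 29.0 and 12.7 CPM in ΔLTreg mice, below both control mice and, except ΔETreg 3 at 27.7 CPM, below the ΔETreg mice at 42.6 and 44.1 CPM. ΔTreg skin exceeded it by a log2 fold change of 2.96 ± 0.29 (edgeR adjusted p = 5.5e-05), the largest among the 10 members in this comparison. Cd163 measured 15.6, 19.3 and 12.3 CPM in ΔLTreg mice, and the log2 fold change to ΔTreg was 2.32 ± 0.26 (edgeR adjusted p = 0.00015). For Lyve1, ΔLTreg mice measured 16.6, 20.7 and 11.6 CPM, and the log2 fold change was 2.05 ± 0.17 (edgeR adjusted p = 1.6e-05). All 3 resident markers kept their call when either or both muscle-rich ΔLTreg mice were left out, at 2.47, 2.02 and 1.70 for Mrc1, Cd163 and Lyve1 without both.

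The shared markers rose by 2.00 ± 0.26 for Itgam (edgeR adjusted p = 0.00037), 1.77 ± 0.36 for Adgre1 (adjusted p = 0.0067), 1.52 ± 0.28 for Cd68 (adjusted p = 0.0037) and 1.12 ± 0.23 for Csf1r (adjusted p = 0.0060), as log2 fold changes over ΔLTreg. ΔLTreg 3 was the lowest ΔLTreg mouse in all 4, for example 4.88 CPM of Adgre1 against 10.7 and 19.3 CPM in ΔLTreg 1 and 2. With only ΔLTreg 2 left in that group, 5 members were called in place of 7. Csf1r (log2 fold change 0.65, edgeR adjusted p = 0.079) and Cd68 (0.95, adjusted p = 0.054) then lost their call, and the share of muscle RNA in this was not tested.

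The recruited markers were again divided within a group. Ly6c2 measured 1.46, 4.59 and 0.188 CPM in ΔLTreg 1, 2 and 3, all below the ΔTreg mice, and the log2 fold change of 2.19 ± 0.75 was not called (edgeR adjusted p = 0.070). It was called with sex as a covariate (2.47 ± 0.68, edgeR adjusted p = 0.032) and without ΔLTreg 2 (3.44 ± 0.75, adjusted p = 0.011). With each mouse left out in turn, Ly6c2 ranged from 1.64 to 3.44 (edgeR adjusted p from 0.011 to 0.19). Ccr2 measured 7.30, 11.999 and 1.72 CPM in the same mice, the second of them within the ΔTreg range, and its log2 fold change was 1.04 ± 0.56 (edgeR adjusted p = 0.24). Cx3cr1 was close to its ΔTreg level already, at 4.23, 5.37 and 2.57 CPM, with a log2 fold change of 0.13 ± 0.26 (edgeR adjusted p = 0.79).

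Against ΔETreg skin, all 10 members were higher in ΔTreg skin, where 13.2% of all genes were called higher and 9.81% lower. These groups also differed in age, P9 against P13, and the part of age cannot be told apart from that of depletion. Ly6c2 gave the widest gap, and Itgam (2.45 ± 0.27, edgeR adjusted p = 7.5e-05) and Ccr2 followed at similar values. Ly6c2 was represented by 4, 8 and 4 reads in ΔETreg mice and by 280, 225 and 288 reads in ΔTreg mice, a log2 fold change of 5.53 ± 1.05 (edgeR adjusted p = 0.0029). Ccr2 measured 2.33, 3.42 and 2.31 CPM in ΔETreg mice, and its log2 fold change was 2.39 ± 0.61 (edgeR adjusted p = 0.015). Cx3cr1 measured 2.16, 1.61 and 2.31 CPM and rose by 1.13 ± 0.28 (edgeR adjusted p = 0.014). The resident markers were higher by log2 fold changes of 2.08, 1.71 and 1.87 for Mrc1, Lyve1 and Cd163.

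With 1 window of depletion, no member was called against control. In ΔETreg skin the count was 0 of 10 by edgeR and by DESeq2, with 0 at an unadjusted p under 0.05, where 0.00544% of all genes were called higher and 0% lower. The resident markers were near their control level there, with log2 fold changes of -0.04 ± 0.30 for Mrc1, 0.17 ± 0.19 for Lyve1 and -0.17 ± 0.29 for Cd163. Ly6c2 (-2.77 ± 1.35) and Ccr2 (-1.41 ± 0.67) had the largest differences, but 1 control mouse set them apart. Without control 1 the value for Ly6c2 became 0.68, and the 3 ΔETreg mice, at 0.139 to 0.263 CPM, were near control 2 at 0.120 CPM.

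In ΔLTreg skin the count was also 0 of 10 by edgeR, with 1 at an unadjusted p under 0.05, where 1.86% of all genes were called higher and 2.69% lower. That gene was Mrc1, which lay below both controls in every ΔLTreg mouse, at a log2 fold change of -0.92 ± 0.31 (edgeR adjusted p = 0.12). DESeq2 called 1 member, Mrc1, and edgeR did so without ΔLTreg 2. Cd163 also lay below both controls in every ΔLTreg mouse (-0.62 ± 0.29, edgeR adjusted p = 0.26). The shares of all genes separated in this way, or at an unadjusted p under 0.05, were not determined. The separation of these 2 members is therefore not read as a result about resident markers. With only ΔLTreg 2 in the group, Mrc1 was at -0.44 (edgeR adjusted p = 0.55). Ly6c2 at 0.57 ± 0.97 and Ccr2 at -0.06 ± 0.64 had differences smaller than their errors.

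Between ΔLTreg and ΔETreg skin, which differed in age and in the days of dosing, 0 members were called by edgeR and 3 had an unadjusted p under 0.05, where 3.12% of all genes were called higher and 3.27% lower. DESeq2 called 2. The 3 genes were Cx3cr1 (1.00 ± 0.28, edgeR adjusted p = 0.062), the single member whose groups did not overlap, Ly6c2 (3.34 ± 1.19, adjusted p = 0.12) and Mrc1 (-0.88 ± 0.28, adjusted p = 0.088). The shares of all genes at an unadjusted p under 0.05 or without overlap were not determined. Neither count is therefore read as a result about the members.

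Resident and recruited markers were each averaged per mouse. The mean log2 CPM of Mrc1, Lyve1 and Cd163 was 4.69 and 4.70 in control mice, 4.27 to 4.86 in ΔETreg, 3.61 to 4.51 in ΔLTreg and 6.29 to 6.74 in ΔTreg mice. That of Ly6c2 and Ccr2 was 2.42 in control 1 and -0.34 in control 2, -0.50 to 0.11 in ΔETreg mice, 1.75, 2.91 and -0.56 in ΔLTreg 1, 2 and 3, and 3.05 to 3.94 in ΔTreg mice. ΔTreg mice were thus the highest in both measures. Control 1 and ΔLTreg 1 and 2 had more of the recruited markers than the other 5 mice outside the ΔTreg group. Both measures ranked the ΔLTreg mice in the same order (2, 1, 3), whereas the control mice differed in the recruited measure and were close in the resident one.

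**Figure D3:**
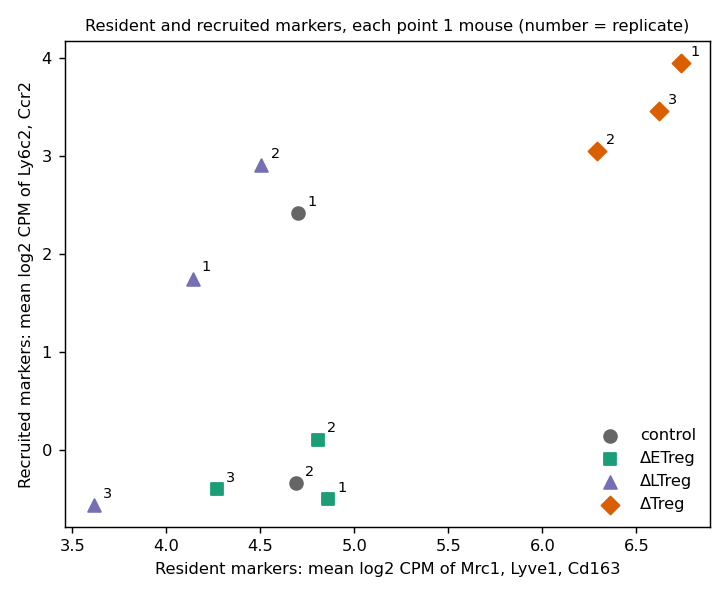
Mean log2 CPM of the recruited markers (Ly6c2, Ccr2) against that of the resident markers (Mrc1, Lyve1, Cd163), each point 1 mouse with its replicate number. ΔTreg mice lie at the upper right, whereas control and ΔLTreg mice spread further on the recruited axis than on the resident axis.

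The difference between both measures, recruited minus resident, was -3.66 ± 1.94 in control (SD, n = 2), -4.91 ± 0.39 in ΔETreg skin and -2.72 ± 1.32 in ΔLTreg skin. In ΔTreg skin it was -3.07 ± 0.24 (SD, n = 3 in each depleted group). The ΔTreg values of -3.24 to -2.80 lay inside the range of the control values, -5.03 and -2.28, and inside that of ΔLTreg, -4.17 to -1.60. The mean of ΔTreg exceeded that of control by 0.59 and was below that of ΔLTreg by a difference of -0.35, both smaller than the spread between mice. The former changed sign, to -0.66, with Ccr2 as the only recruited marker. Only the ΔETreg mice, at -5.36 to -4.67, lay wholly below the ΔTreg mice.

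The mice with high recruited markers outside the ΔTreg group were all female and ΔLTreg 3 and control 2, with low levels, were male. ΔETreg 1 was female with 0.139 CPM of Ly6c2 and ΔTreg 3 was male with 8.90 CPM. The part of sex in this division was not tested beyond its use as a covariate. A search of 13897 genes for the patterns most like each marker over the 11 libraries, by the root mean square (RMS) difference of centred log2 CPM, returned Slfn1, Slfn4 and Zbp1 for Ly6c2 (RMS 0.49 to 0.59). Slfn4 measured 3.75 CPM in control 1 and 0.040 CPM in control 2, and 1.79, 4.16 and 0.125 CPM in ΔLTreg 1, 2 and 3, the same division as for Ly6c2. Zbp1 is a sensor of nucleic acids that interferon induces, and it measured 5.01 and 0.717 CPM in control mice. For Ccr2 the nearest were the macrophage perforin gene Mpeg1, the high-affinity Fc receptor gene Fcgr1 and Ifi209 (RMS 0.29 to 0.40). The resident markers had other genes nearest to them. Aoah, Cd163 and Clec10a were nearest to Mrc1 (RMS 0.30 to 0.34), Clec4n and Aoah to Cd163 (RMS 0.21 for both), and Gmfg and Nfkbie to Lyve1 (RMS 0.16 and 0.19).

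Macrophage genes did not rise to 1 common degree. Relative to Csf1r in the same mouse, Mrc1 stood at -0.29 and -0.23 on the log2 scale in control mice, -0.88 to -0.72 in ΔLTreg mice and 0.89 to 1.32 in ΔTreg mice, and these ranges were separate. Cd163 moved from -0.98 and -0.96 in control and -1.35 to -0.93 in ΔLTreg to between -0.17 and 0.09 in ΔTreg mice. Lyve1 moved from -1.62 and -1.12 in control and -1.25 to -1.01 in ΔLTreg to between -0.33 and -0.0039 in ΔTreg mice. Every ΔTreg mouse was above every control and ΔLTreg mouse in these 3 ratios, whose reference, Csf1r, changed less than the other shared markers. Relative to the mean of the 4 leukocyte genes, the same 3 markers overlapped between ΔTreg and control mice. Mrc1 then stood at 1.33 and 1.69 in control, 0.58 to 0.70 in ΔLTreg and 1.69 to 1.94 in ΔTreg mice. Cd163 stood at 0.65 and 0.94, 0.12 to 0.53 and 0.63 to 0.97, and Lyve1 at -0.00082 and 0.80, 0.22 to 0.45 and 0.35 to 0.79, in the same order of groups. Csf1r itself stood lower by this measure in ΔTreg mice, at 0.62 to 0.89 against 1.61 and 1.92 in control. In bulk skin, more cells of a type and more RNA per cell cannot be told apart.

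The wider gene lists, like the members, were chosen with earlier results of these data known and are no separate support. Of 16 core macrophage genes, 10 were higher and none lower in ΔTreg than in control skin (median log2 fold change 1.63). Over ΔLTreg skin 12 were higher (median 1.48). Of all genes tested, 12.1% were called higher over control and 10.7% over ΔLTreg. C1qc, which encodes a chain of complement C1q, measured 19.7 and 19.8 CPM in control and 80.9 to 94.3 CPM in ΔTreg mice. Lgmn, a lysosomal protease gene, rose over ΔLTreg by 1.16 ± 0.15 (edgeR adjusted p = 0.00035), and the efferocytosis receptor gene Mertk was at 0.15 ± 0.06 (adjusted p = 0.14). Of 14 further genes of dermal resident macrophages, 10 were higher than in control (median 1.195) and 13 higher than in ΔLTreg skin (median 1.76), and none was lower. The lectin gene Mgl2 measured 10.1 and 9.999 CPM in control mice, 6.48 to 7.90 CPM in ΔLTreg mice and 75.0, 48.0 and 65.6 CPM in ΔTreg mice. Ccl24, an eosinophil-attracting chemokine gene, measured 0.665 and 1.23 CPM in control and 38.0, 14.5 and 19.0 CPM in ΔTreg mice. In this list the scavenger receptor gene Stab1 was at 0.12 ± 0.16 (edgeR adjusted p = 0.63) against control, so its members did not change alike.

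Of 14 monocyte genes, 13 were tested. In each of these comparisons of ΔTreg skin 6 genes rose and 1 fell (median 2.04 over control and 1.66 over ΔLTreg). Of all genes tested, 12.1% rose and 9.39% fell against control, and 10.7% rose and 6.11% fell against ΔLTreg. The gene lower than in control was Vcan, a matrix proteoglycan gene that fibroblasts also express (-0.93 ± 0.20, edgeR adjusted p = 0.0079). The gene lower than in ΔLTreg was Ace (-0.36 ± 0.09, adjusted p = 0.022). Chil3, which encodes the chitinase-like protein Ym1 of monocytes and macrophages, had 0 or 1 read in each of the other 8 mice and 8.88, 3.95 and 3.43 CPM in ΔTreg mice. Spn (CD43), which T cells also express, measured 2.49 and 2.39 CPM in control and 14.4, 10.9 and 14.0 CPM in ΔTreg mice. Plac8 was called against control (2.55 ± 0.79, edgeR adjusted p = 0.040) but not against ΔLTreg (1.66 ± 0.63, adjusted p = 0.10), where no test of the difference was made.

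Genes for the ligands of the member receptors were examined next. CCL2, CCL7 and CCL12 are chemokines that act on CCR2, and CCL8 is a related chemokine that in mice is known mainly for acting on CCR8. All 4 genes rose in ΔTreg skin. Ccl2 measured 2.24 and 1.195 CPM in control mice, 2.02 to 3.19 CPM in ΔETreg, 1.60 to 3.64 CPM in ΔLTreg and 45.5, 29.8 and 26.7 CPM in ΔTreg mice. Its log2 fold change was 4.28 ± 0.40 over control (edgeR adjusted p = 3.6e-05) and 3.60 ± 0.31 over ΔLTreg (adjusted p = 2.6e-05). Ccl8, which macrophages themselves are known to make, was the most abundant of the 4, at 85.7, 51.6 and 69.7 CPM in ΔTreg mice against 4.34 and 3.59 CPM in control mice. Ccl7 (3.93 ± 0.40) and Ccl12 (3.54 ± 0.44) rose over control to a like degree. ΔLTreg 1 and 2, which had more Ccr2 than ΔLTreg 3, also had more of each of these chemokines, for example 7.03 and 4.90 against 2.54 CPM of Ccl8. This was not particular to these genes, since ΔLTreg 3 was also the lowest ΔLTreg mouse in all shared markers and in Csf1. Between ΔLTreg 1 and 2, Ccr2 and Ccl12 were higher in ΔLTreg 2, whereas Ccl2, Ccl7 and Ccl8 were higher in ΔLTreg 1.

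Both ligands of CSF1R differed from each other. Csf1, the growth factor for macrophages, measured 19.96 and 15.4 CPM in control and 45.7, 36.4 and 37.2 CPM in ΔTreg mice, a log2 fold change of 1.16 ± 0.19 (edgeR adjusted p = 0.0015). Il34, the keratinocyte ligand on which Langerhans cells depend, measured 19.6 and 18.1 CPM in control and 15.6, 16.1 and 16.1 CPM in ΔTreg mice, and the log2 fold change of -0.25 ± 0.12 was not called (edgeR adjusted p = 0.19). Cx3cl1, which encodes fractalkine, was higher than in ΔLTreg skin (0.51 ± 0.11, edgeR adjusted p = 0.0077), and its difference from control was 0.34 ± 0.12 (adjusted p = 0.071). No ligand gene was called in ΔETreg or ΔLTreg against control.

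**Figure D4:**
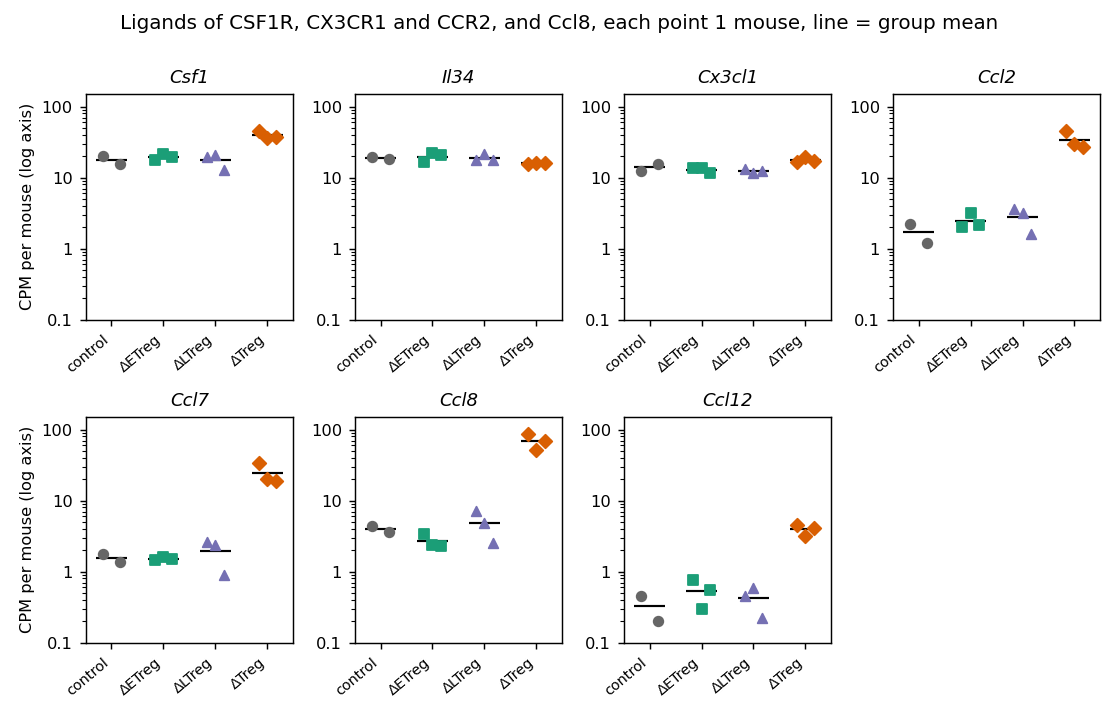
Level in CPM (log axis) of the genes for ligands of CSF1R (Csf1, Il34), CX3CR1 (Cx3cl1) and CCR2 (Ccl2, Ccl7, Ccl12) and of the related Ccl8, each point 1 mouse, the line the group mean. In ΔTreg skin all 4 CC chemokines lie above every mouse of the other groups, whereas Il34 lies below.

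Of 14 genes of macrophage activation, 11 were higher than in control and 10 higher than in ΔLTreg skin, with none lower. The shares of all genes called higher were 12.1% and 10.7%. Retnla, a gene of alternatively activated macrophages, measured 2.10 and 3.19 CPM in control and 146, 110 and 166 CPM in ΔTreg mice. It was also called in ΔLTreg against control (1.35 ± 0.33, edgeR adjusted p = 0.042). Nos2, the inducible nitric oxide synthase of classically activated macrophages, measured 1.33 and 1.75 CPM in control and 12.3, 19.7 and 13.6 CPM in ΔTreg mice. Il6 (3.76 ± 0.56), Cd40 (2.70 ± 0.25) and Il1b (1.72 ± 0.35) were among the genes that rose over control, and Gpnmb (0.04 ± 0.12) and Trem2 (0.96 ± 0.66) were not called.

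Markers of other cells moved with the members, where 12.1% of all genes were called higher over control. All 4 leukocyte genes rose, with a summed level of 54.7 to 74.7 CPM in control and 174 to 240 CPM in ΔTreg mice, and Ptprc (CD45) rose over ΔLTreg by 1.71 ± 0.21 (edgeR adjusted p = 0.00024). All 9 markers of T and natural killer cells rose over control (summed level 11.1 to 13.7 CPM in control and 75.8 to 87.0 CPM in ΔTreg mice), and Cd8a and Gzmb led this list. All 7 neutrophil markers tested rose over control (13.6 to 14.5 CPM and 35.3 to 44.8 CPM), S100a9 and Ngp among them, while Ly6g had no more than 3 reads in any mouse. The part of these cells in the change of Itgam, Ccr2 and Ly6c2 was not tested. Of the 4 genes listed for Langerhans cells, 1 was called lower and 2 higher against control. The lower was Cd207 (langerin), at 3.57 and 4.46 CPM in control and 1.201, 1.22 and 1.73 CPM in ΔTreg mice. Its log2 fold change was -1.52 ± 0.19 (edgeR adjusted p = 0.00025). Itgae, which rose by 1.31 ± 0.11, is not particular to these cells. Of 7 dendritic cell markers only Itgax and Ccr7 were called.

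Lymphatic endothelium also expresses Lyve1, and its part in the change of Lyve1 was not tested. Its defining gene Prox1 measured 8.09 and 7.01 CPM in control and 5.36, 5.88 and 6.31 CPM in ΔTreg mice, and its log2 fold change of -0.37 ± 0.13 was not called (edgeR adjusted p = 0.068). Mmrn1 rose by 0.69 ± 0.13 (edgeR adjusted p = 0.0034) and Reln by 0.44 ± 0.13 (adjusted p = 0.035), and Pdpn was at 0.24 ± 0.14. The summed level of the lymphatic markers was 71.2 to 77.8 CPM in control and 88.0 to 92.5 CPM in ΔTreg mice. Ly6c1 measured 23.1 and 20.1 CPM in control, 39.5, 42.0 and 25.8 CPM in ΔLTreg and 53.9, 58.2 and 52.0 CPM in ΔTreg mice, and was called both in ΔTreg (1.34 ± 0.18, edgeR adjusted p = 0.00043) and in ΔLTreg skin against control (0.72 ± 0.18, adjusted p = 0.046). Within ΔLTreg and control skin Ly6c1 ranked the mice as Ly6c2 did, over a narrower range. Among other blood endothelium markers, Pecam1 rose by 0.69 ± 0.05 and Cdh5 fell by 0.36 on the log2 scale. None of the mast cell markers, such as Mcpt4, was called higher in ΔTreg skin, and Kit fell by 0.51 against control. The adipocyte genes Adipoq and Lep and the muscle genes Myh4 and Mylpf were higher in ΔLTreg than in ΔTreg skin, with Lep not called.

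**Figure D5:**
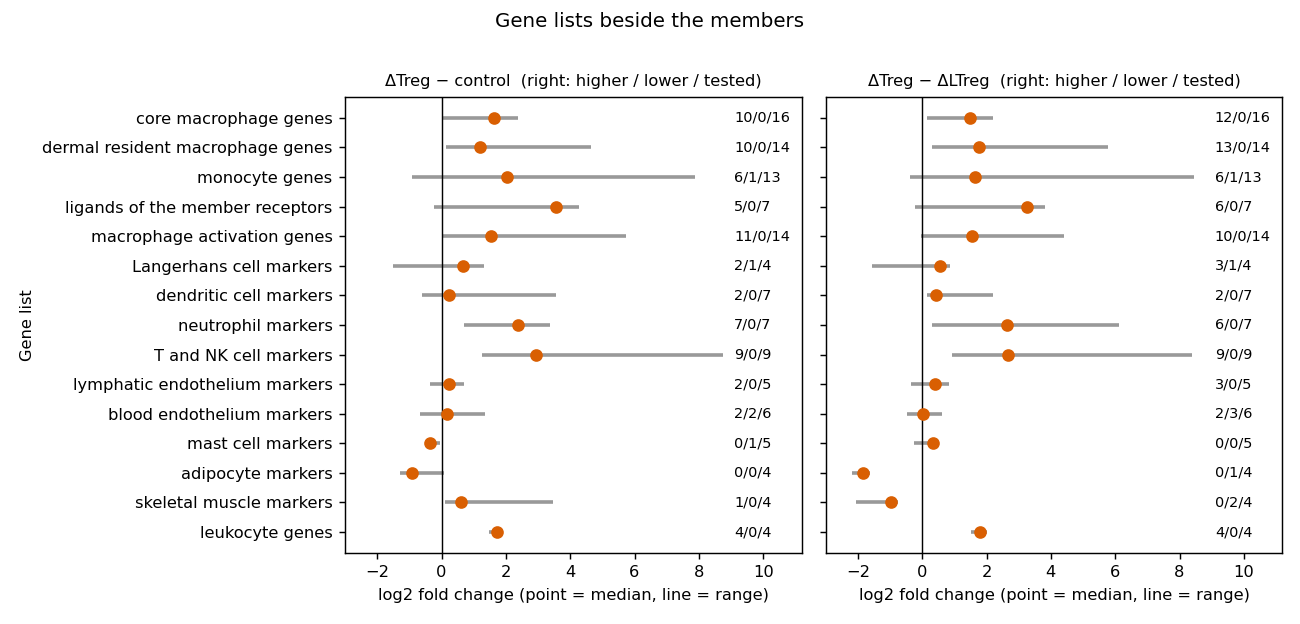
Median (point) and range (line) of the log2 fold change over the genes of each list, in ΔTreg against control and against ΔLTreg skin, with the numbers called higher, called lower and tested at the right. Core and resident macrophage lists have 10 to 13 genes called higher and none lower, beside T and natural killer cell and neutrophil lists that also rose.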

How the data were processed

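Whole-skin biopsies from 11 mice were sequenced as 150-base read pairs. Per the submitters' processing notes and the methods, the authors used Trimmomatic 0.36 for trimming and STAR 2.5.2b for mapping to GRCm38, and counted uniquely assigned exonic reads with featureCounts (Subread 1.5.2). The authors deposited raw counts per gene, without normalization. Strand setting and annotation release were not given in the sources used here. Groups were taken from the treatment labels. The design text states that each sample is 1 mouse, so p-values rest on the spread between mice.

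The members and gene lists were chosen with earlier results of these data known. Of 11 rows that matched the 10 symbols, the second Itgam row (Gm49368 in GENCODE M21, 0 to 4 reads) was not used. Coordinates and exon lengths came from GENCODE M21, and promoters from RefSeq. Rows without a gene name numbered 174 and were kept as genes.

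Tests were run with edgeR 4.0.16 in R 4.3.3 (filterByExpr, TMM, 1 quasi-likelihood fit with a mean per group and a common dispersion of 0.0120), with Benjamini-Hochberg adjustment. The SE was the size of the log2 fold change over the root of its F statistic. Log2 CPM used a prior count of 2. CPM per kb divides by the union of exon bases. Named genes were the members, the ligands, Ly6c1, Ptprc, Foxp3, Prox1, the 2 genes per list with the smallest p in ΔTreg against ΔLTreg, and the 3 nearest patterns per resident or recruited marker, among genes with a mean count of at least 50. Mertk, Stab1, Vcan, Ace, Plac8, Il6, Cd40, Il1b, Gpnmb, Trem2, Reln and Ly6g were named from the lists after their values were seen. Lists were described by counts and medians, without a set test. Some genes that the rule names are not reported here.

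Alternatives were DESeq2 1.42.0, fits to 2 groups only, other scalings, filters and prior counts, a surrogate variable (sva 3.50.0), sex from Xist and Ddx3y, and each mouse left out. Leaving out both muscle-rich ΔLTreg mice was chosen after seeing the data. The edgeR script was tested on simulated data. Floors of 3 reads cover counting error only.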

Additional observations from a re-analysis of the deposited data

How the results depend on the processing

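No paired analysis was possible because the labels give no shared replicate numbers and each mouse belongs to 1 group. The count of members called over ΔLTreg was 7 to 9 and over ΔETreg 9 or 10 under the other tools, scalings, filters and covariates. Without a filter on low counts, 2 members were called in ΔETreg, 3 in ΔLTreg and 10 in ΔTreg against control, and 6 in ΔLTreg against ΔETreg. There edgeR's fit of the spread included genes with almost no reads, and the cause of the added calls was not tested. The share of all genes called under this and the other alternatives was not determined. These counts are therefore not read as results about the members. DESeq2 called 1 member in ΔLTreg against control and 2 in ΔLTreg against ΔETreg. Leaving out 1 mouse gave 0 to 1 members in ΔLTreg against control and 0 to 3 in ΔLTreg against ΔETreg. Monocyte genes called numbered 7 over control and 7 over ΔLTreg, against 11 and 11 without a filter and 4 and 3 with at least 10 reads in every library, a filter that removes Ly6c2. They numbered 3 over ΔLTreg without both muscle-rich ΔLTreg mice and 4 to 9 with 1 mouse left out, the lowest without ΔTreg 1.

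Directions turned only among differences that were not called. In ΔETreg against control, Itgam became 0.0112 under library-size scaling, 0.0475 with a surrogate variable and 0.0472 with sex, and Mrc1 became 0.00674 and 0.00544 with these covariates. Without both muscle-rich mice, ΔLTreg against control became 0.35 for Adgre1, 0.0606 for Csf1r, 0.30 for Cd68, 0.18 for Lyve1 and 0.73 for Ccr2, and ΔTreg against ΔLTreg became -0.28 for Cx3cr1. With 1 mouse left out, where a lone control is assumed to vary like the other groups, ΔETreg against control ranged from -0.54 to 0.0836 for Cd68, -0.32 to 0.28 for Itgam, -0.16 to 0.14 for Mrc1, -3.65 to 0.68 for Ly6c2, -0.75 to 0.0162 for Cx3cr1 and -0.44 to 0.0780 for Cd163. ΔLTreg against control ranged from -0.64 to 0.0770 for Cd68, -0.68 to 1.10 for Ccr2, -0.68 to 4.01 for Ly6c2 and -0.37 to 0.0236 for Lyve1, and ΔTreg against ΔLTreg from -0.11 to 0.37 for Cx3cr1. Members called over control numbered 4 to 6, with 4 without control 2 or ΔTreg 1. Recruited minus resident of ΔTreg against control ranged from -0.78 without control 2 to 1.96 without control 1. Groups of 2 or 3 mice and the few reads of Ly6c2 limit these comparisons.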
